A study of Mus musculus with 44 samples.

Results

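NF-kB binding after lipopolysaccharide (LPS) was compared between mouse macrophages without the DNA methyltransferase Dnmt3a (KO) and wild-type macrophages (WT). The comparison rests on the deposited NF-kB peak list of each genotype, a peak being an interval where the authors reported enrichment of NF-kB-bound DNA. The KO list holds 2376 peaks and the WT list 2494, together 4870 of the 15489 peaks in the 8 lists of the series. A peak was called shared when it overlapped a peak of the other genotype's list by at least 1 bp, and KO-only or WT-only otherwise. In the KO list 1428 peaks were shared and 948 were KO-only, which is 39.9% of that list (95% interval 37.9 to 41.9%). In the WT list 1364 peaks were shared and 1130 were WT-only, which is 45.3% (43.3 to 47.3%). Joined across lists, the peaks formed 3397 loci, of which 1319 held peaks of both genotypes.

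Both groups are bone marrow-derived macrophages of strain C57BL/6, and both received 10 ng/ml LPS over 6 hours. Marrow cells of both genotypes had been grown with 30 ng/ml M-CSF, the growth factor that directs them towards macrophages, in 10% serum until day 8 to 10. Chromatin was sheared to fragments of 100 to 300 bp before immunoprecipitation. Each genotype has 3 NF-kB samples with LPS, 6 of the 44 samples of the series, and each list merges the 3 samples of its genotype. A merged list has no value per sample, so there is no spread between replicates and no test between genotypes. Intervals are exact Clopper-Pearson 95% intervals that cover counting error only. The labels do not say how or in which cells Dnmt3a was deleted, which NF-kB subunit was precipitated, or whether the samples came from separate animals. Peak lists allow no check of the Dnmt3a deletion or of the macrophage identity of the cells, and the sources used here do not state how deeply the samples were sequenced.

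NF-kB is a family of dimeric transcription factors that inhibitor proteins hold in the cytoplasm of resting macrophages. LPS acts through a Toll-like receptor complex and a kinase cascade that triggers destruction of those inhibitors, whereupon NF-kB enters the nucleus and binds short G-rich and C-rich sites at inflammatory genes. Several of its best known targets encode its own inhibitors, which gives the pathway negative feedback. Dnmt3a places methyl groups on cytosines that carried none before.

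Among genes of 10 lists on the LPS response and on macrophages (the macrophage lists) that have a RefSeq start window, from 250 bases before to 50 after the start, 7 had a narrow NF-kB peak with LPS overlapping it, a narrow peak being one under 500 bp. Their starts are printed because they show where these peaks sit relative to NF-kB-like letters. The first 3 are genes with a peak in both lists (Tnfaip3, Nlrp3 and Irak3) and the last 4 are genes with a peak in the KO list alone (Nfkbia, B2m, Birc3 and Lcn2). Each line holds the 250 bases before the annotated start, 5′ to 3′ on the gene's strand, from RefSeq's GRCm38.p6 table, the assembly known as mm10. They are, in the same order, chr10:19015411-19015660 (minus strand), chr11:59541319-59541568 (plus strand), chr10:120201598-120201847 (minus strand), chr12:55492648-55492897 (minus strand), chr2:122147437-122147686 (plus strand), chr9:7873171-7873420 (minus strand) and chr2:32387740-32387989 (minus strand). Capitals mark every match to a loose NF-kB form, GGGNNNNNCC, on either strand, and overlapping matches appear as 1 longer run.
Tnfaip3: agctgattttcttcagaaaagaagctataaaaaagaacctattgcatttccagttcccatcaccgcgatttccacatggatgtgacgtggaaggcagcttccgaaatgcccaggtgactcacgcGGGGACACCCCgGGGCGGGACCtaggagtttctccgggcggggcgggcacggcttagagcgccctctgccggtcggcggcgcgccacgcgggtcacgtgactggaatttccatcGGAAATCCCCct
Nlrp3: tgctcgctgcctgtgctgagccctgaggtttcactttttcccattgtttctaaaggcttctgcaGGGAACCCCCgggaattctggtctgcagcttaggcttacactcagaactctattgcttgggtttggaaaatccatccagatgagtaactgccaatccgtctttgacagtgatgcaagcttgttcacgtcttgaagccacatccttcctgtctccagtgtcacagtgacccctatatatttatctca
Irak3: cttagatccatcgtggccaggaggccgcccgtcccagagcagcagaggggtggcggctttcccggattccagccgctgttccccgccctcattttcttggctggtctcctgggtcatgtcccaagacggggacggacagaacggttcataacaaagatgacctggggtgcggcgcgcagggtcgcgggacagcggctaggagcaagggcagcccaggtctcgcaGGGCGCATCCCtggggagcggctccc
Nfkbia: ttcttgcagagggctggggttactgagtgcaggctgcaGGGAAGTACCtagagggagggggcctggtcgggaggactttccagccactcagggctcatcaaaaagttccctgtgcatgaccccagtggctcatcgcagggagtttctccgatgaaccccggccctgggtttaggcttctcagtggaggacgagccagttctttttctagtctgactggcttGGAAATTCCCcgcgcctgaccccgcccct
B2m: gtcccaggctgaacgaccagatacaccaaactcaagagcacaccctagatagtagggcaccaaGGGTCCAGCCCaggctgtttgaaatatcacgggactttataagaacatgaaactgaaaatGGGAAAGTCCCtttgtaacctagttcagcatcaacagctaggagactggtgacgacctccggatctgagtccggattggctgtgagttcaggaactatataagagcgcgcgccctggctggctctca
Birc3: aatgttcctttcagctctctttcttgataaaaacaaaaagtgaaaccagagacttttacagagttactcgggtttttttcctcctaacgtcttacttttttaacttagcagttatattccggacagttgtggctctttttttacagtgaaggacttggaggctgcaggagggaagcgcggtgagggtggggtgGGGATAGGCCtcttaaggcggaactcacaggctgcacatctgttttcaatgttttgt
Lcn2: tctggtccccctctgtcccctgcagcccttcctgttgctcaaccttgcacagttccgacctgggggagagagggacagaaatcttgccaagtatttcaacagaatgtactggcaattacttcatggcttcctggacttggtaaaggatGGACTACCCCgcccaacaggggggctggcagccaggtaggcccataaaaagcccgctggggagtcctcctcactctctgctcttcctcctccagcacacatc

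A stricter 10-base NF-kB consensus, all of whose matches are also matches to the loose form, was searched on both strands of these windows. Positions count from the annotated start, with negative numbers before it. Tnfaip3, which encodes a ubiquitin-editing enzyme that shuts NF-kB signalling down, had the consensus at positions -125 to -116 and -12 to -3, inside the peaks of both lists. Nlrp3, the sensor protein of an inflammasome, had it at positions -186 to -177. There the KO list had abutting peaks of 125 bp and 142 bp (chr11:59541288-59541412 and chr11:59541413-59541554), and the consensus lay in the farther of them. The WT peak at Nlrp3 (chr11:59541406-59541554) did not reach it. Irak3, an inhibitory member of the IRAK family, had the loose form alone. B2m, the light chain of MHC class I, had the consensus at positions -126 to -117, inside its KO peak. Nfkbia, which encodes the inhibitor IkBa, had the consensus at positions -29 to -20. The KO peak there began 83 bp from the gene and covered only a loose match at positions -212 to -203. Lcn2, an iron-scavenging carrier protein, had a loose match at positions -102 to -93 inside its peak. The loose match of Birc3, an apoptosis inhibitor that also ubiquitinates signalling proteins, lay at positions -57 to -48, outside a peak that began 8 bp beyond the start.

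**Figure D1:**
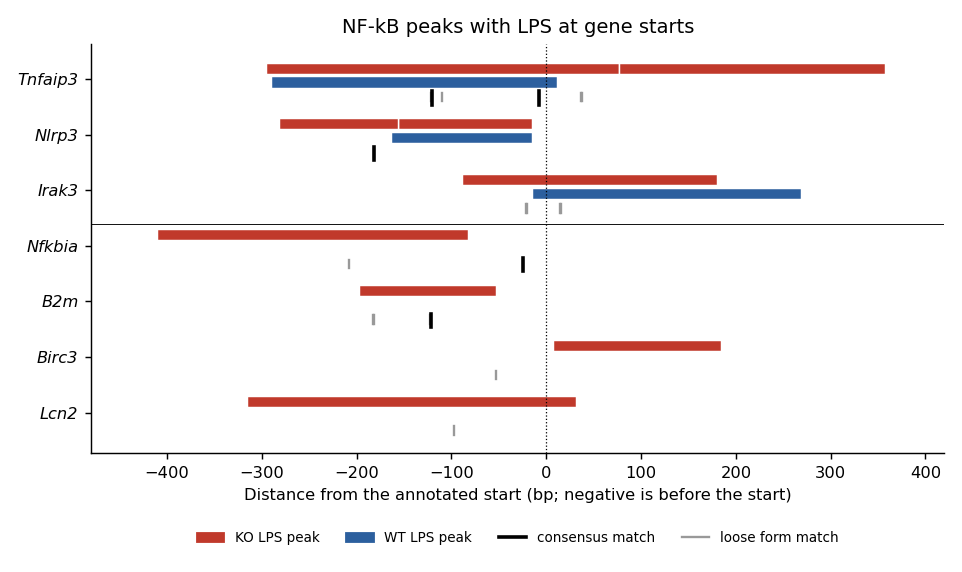
Deposited NF-kB peaks with LPS (bars, red for the KO list and blue for the WT list) and motif matches (ticks, black for the consensus and grey for the loose form) around the annotated starts of 7 genes; the horizontal axis is the distance from the start in bp. The upper 3 genes have bars of both colours and the lower 4 have red bars alone.

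Over all genes with a RefSeq start window, 8.46% of 32851 windows held the consensus and 50.8% held the loose form. Of the 8 windows under narrow KO-only peaks, 3 held the consensus (37.5%) and 6 the loose form (75.0%). The consensus windows were those of B2m, Nfkbia and the predicted gene Gm36634, and the last pair lie under 1 peak. Only the B2m consensus lay inside the peak, and those of Nfkbia and Gm36634 lay outside it. The shares thus describe whole windows and not the bases under the peaks. Of the 10 windows under narrow shared peaks of the KO list, 4 held the consensus (40.0%) and all 10 the loose form. Those 4 belong to Tnfaip3, Nlrp3, Lrmda and the predicted gene Gm32287. The 10 windows are not independent. Those of Gm14321 and Gm32287 lie under 1 peak and those of Gm38500 and Irak3 under another. Where such windows overlap, the same loose match was counted in more than 1 of them. Narrow WT-only peaks covered 3 windows, of Gm21698, A530032D15Rik and Gm41113, and none of the 3 held the consensus. Wide WT-only peaks covered 3 more, and 1 of these held it (33.3%), against 0 of the 3 under wide KO-only peaks. That window belongs to the predicted gene Gm51701, and its consensus matches lay inside the WT-only peak at rank 182. With 3 to 11 windows per class these shares are descriptions. The windows under narrow shared KO peaks were also richer in G and C (mean 61.1%) than all windows (53.8%), those under narrow KO-only peaks were not (51.7%), and the part of base composition in the matches was not tested. The AP-1 core (TGANTCA) was in 1 of the 8 KO-only windows against 7.81% of all windows, and the PU.1 core (GAGGAA) in 2 of the 8 against 28.3%. Of the 10 windows under narrow shared KO peaks, 2 held the AP-1 core and 5 the PU.1 core. Of the 3 windows under wide KO-only peaks, 2 held the AP-1 core and none the PU.1 core.

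The genotypes shared nearly all of their best-ranked peaks and few of their lowest-ranked ones. Rank orders the peaks of a list by the authors' p-value, the smallest first. Signal values, p-values and q-values are the authors' own, and since the lists differ in length a rank in one is no measure of change against the other. Of the 100 best-ranked peaks, 99 of the KO list and 100 of the WT list were shared. At ranks 501 to 1000 the share was 72.8% (68.7 to 76.7%) in the KO list and 67.6% (63.3 to 71.7%) in the WT list. Among the last peaks, from rank 2001 on, 35.6% (30.8 to 40.7%) of KO peaks and 24.3% (20.6 to 28.3%) of WT peaks were shared. A q-value under 0.05 was deposited for 10 of the 948 KO-only peaks and for 7 of the 1130 WT-only peaks, against 217 of 1428 and 323 of 1364 shared ones. The median q-value of the KO-only peaks was 0.793 and that of the WT-only peaks 0.678. The median rank was 1612.5 for KO-only and 1716.5 for WT-only peaks, against 839.5 and 778.5 for shared peaks of the KO and WT lists.

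**Figure D2:**
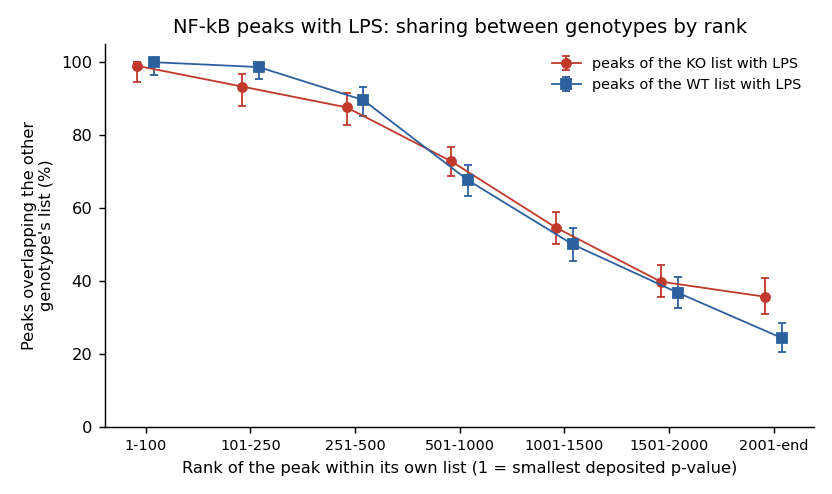
Percent of NF-kB peaks with LPS that overlap a peak of the other genotype's list, by rank within the own list (red circles for the KO list, blue squares for the WT list; bars are exact 95% intervals). Sharing starts at 99 and 100% among the 100 best-ranked peaks and ends at 35.6 and 24.3%.

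KO-only and WT-only peaks were narrower than shared ones. The median width was 491 bp for KO-only peaks (quartiles 199 and 1029 bp) and 1253 bp for shared peaks of the KO list (728 and 1941 bp). It was 608.5 bp for WT-only peaks (271 and 1157 bp) and 1393.5 bp for shared peaks of the WT list (903 and 2011 bp). Narrow peaks made up 50.6% of the KO-only class (47.4 to 53.9%), 40.2% of the WT-only class (37.3 to 43.1%), 15.3% of shared KO peaks (13.4 to 17.2%) and 11.8% of shared WT peaks (10.1 to 13.6%). The shortest class, under 200 bp, held 25.1% of KO-only and 17.2% of WT-only peaks. A wide interval has more room to overlap another, and the part of width in sharing was not tested. Of narrow peaks, 31.2% in the KO list and 26.2% in the WT list were shared, against 72.1 and 64.0% of wider ones.

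**Figure D3:**
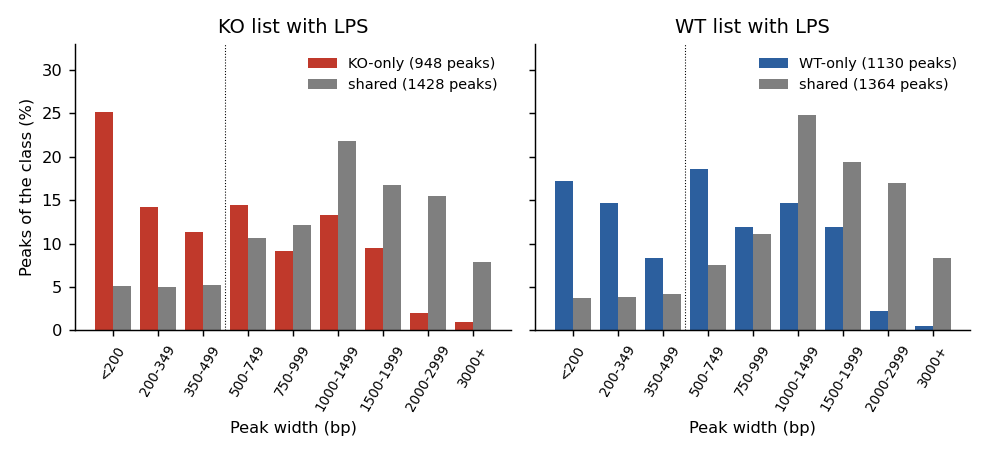
Width of NF-kB peaks with LPS by class (left, KO list; right, WT list; coloured bars are peaks of 1 list alone, grey bars are shared peaks; the vertical axis is the percent of the class, and the dotted line stands at 500 bp). Coloured bars are taller than grey ones in every class under 500 bp, and grey ones are taller from 1000 bp on.

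At genes of the LPS response and of macrophages, those with an NF-kB peak in the KO list alone outnumbered those with one in the WT list alone. Of 235 genes in 10 macrophage lists, 232 matched a protein-coding gene, and a gene was counted when a peak lay within 10 kb of its annotated span. In all, 18 of the 232 (7.76%) had a KO peak and no WT peak, 15 (6.47%) had both and 1 (0.431%) had a WT peak and no KO peak. Over all 21883 protein-coding genes the same shares were 1.3% (284 genes), 2.67% (584 genes) and 1.43% (313 genes), so that in the whole genome the WT-only count was not the lower one. A peak of either list lay within 10 kb of 34 of the 232 (14.7%) and of 5.4% of all protein-coding genes (1181). The lists were written with earlier results of these data known and hold genes picked for that reason, such as Fyb, Fpr2, Fgd2 and Ccr1. The counts are therefore a description and no independent evidence of a direction. The numbers moved with the criteria. With a q-value under 0.05 in both lists they were 8 KO, 2 both and 1 WT, within 1 kb they were 11, 10 and 1, and among the 1000 best-ranked peaks of each list 16, 9 and 0. These are not all genes with a peak in 1 full list alone. The 8 include Fpr2, Fyb, Malt1, Tnfaip3 and Tnip1, and the 1 is Fcgr1, all of which have peaks in both full lists. So do Bcl3, Cxcl16, Irak3, Mefv, Nlrp3 and Ptges among the 16.

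The 18 genes with KO peaks alone had 22 peaks, with a median width of 225 bp and a range of 126 to 2648 bp. For 14 of the 18 at least 1 peak was narrow. Only 2 of the 22 peaks, beside Saa1 and at Adgre1, had a q-value under 0.05, and the best rank per gene ranged from 177 to 2308. For 16 of the 18 genes the nearest WT peak lay more than 100 kb away. The exceptions were Socs3, with a WT peak at 19323 bp, and Fpr1, with one at 16916 bp. The genes were counted because no WT peak lay within 10 kb. Distances over 100 kb were common among all KO-only peaks, whose median distance to the nearest WT peak was 255456.5 bp. The 4 genes with wide KO peaks alone (Tlr2, Saa3, Tbk1 and Sirpa) included 3 that had an NF-kB peak in untreated cells within 10 kb, against 1 of the 14 genes with a narrow peak.

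**Figure D4:**
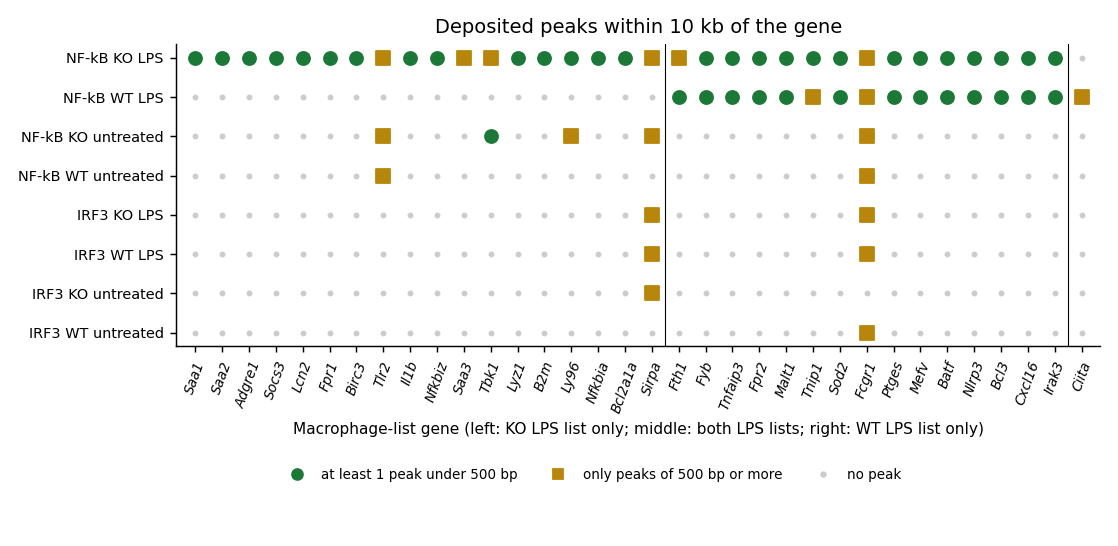
Deposited peaks within 10 kb of the 34 macrophage-list genes that had an NF-kB peak with LPS (columns), in each of the 8 lists (rows); green circles mark at least 1 peak under 500 bp, brown squares only wider peaks and small dots none. Of the 18 genes at the left, 4 also have a mark in an untreated NF-kB row, as has 1 of the 15 in the middle.

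Of the 18 inhibitors and feedback regulators of NF-kB 7 had a peak (38.9%, beside 5.4% of all protein-coding genes), 3 in KO alone and 4 in both lists. The peak 83 bp from Nfkbia (chr12:55492730-55493057, 328 bp) was among the lowest-ranked of the KO list, at rank 2153 with a q-value of 0.912. Its signal of 12.1 was above the median of KO-only peaks (10.5). Nfkbiz, a nuclear IkB protein that is itself induced by LPS, had a KO peak of 325 bp inside the gene (chr16:55822203-55822527, rank 965, q-value 0.420). Socs3, a suppressor of cytokine receptor signalling, had 4 separate narrow KO peaks between 3627 and 9170 bp from the gene. Their ranks were 257, 271, 330 and 1604, and no WT peak lay at any of the 4 positions. Ranks by p-value thus differed among the 3 genes, from Socs3, with 3 peaks among the 330 best-ranked, to Nfkbia.

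Tnfaip3 had its WT peak at chr10:19015399-19015700 (302 bp, rank 389, q-value 0.0695). The KO list held 2 abutting peaks there, of 372 bp over the start (rank 53, q-value 0.00297) and of 281 bp in the gene (rank 435, q-value 0.142). The second of them did not touch the WT peak and so counts as KO-only, although it borders a shared peak. Tnip1, whose protein assists the Tnfaip3 product, also had abutting KO peaks (250 and 270 bp, best rank 163) over a WT peak of 519 bp (rank 815). Bcl3, a nuclear IkB protein, had narrow peaks of 146 bp in KO (rank 767) and 170 bp in WT (rank 1998). Irak3 had 269 bp in KO (rank 948) and 284 bp in WT (rank 1728). In the whole KO list 14 KO-only peaks abutted a shared peak in this way, and in the WT list 8 WT-only peaks did.

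Of 32 genes of Toll-like receptor and NF-kB signalling, 4 had a KO peak alone (12.5%) and 1 had peaks in both lists (3.13%). Over all protein-coding genes these shares were 1.3 and 2.67%, and counts of this size are a description. The KO-only genes were Tlr2, a receptor for bacterial lipoproteins, Ly96, the partner of the LPS receptor, Birc3, and Tbk1, the kinase that activates IRF3. The Birc3 peak was the narrowest of these, with 177 bp (chr9:7872986-7873162, rank 601, q-value 0.221). The Tlr2 peak was 2648 bp wide (rank 667, q-value 0.257) and overlapped peaks of both untreated lists. The Tbk1 peak of 1305 bp lay inside the gene (rank 1244, q-value 0.587), as did untreated KO peaks that did not overlap it. The Ly96 peak of 352 bp lay 1397 bp from Ly96 (rank 1991, q-value 0.902). It overlapped an untreated KO peak of 826 bp (rank 1258, q-value 0.312). Malt1, a paracaspase of the pathway, had narrow peaks in both lists, of 208 bp in KO (rank 133, q-value 0.0195) and 245 bp in WT (rank 365, q-value 0.0623). None of the 5 genes of NF-kB subunits had a peak of either list within 10 kb, too few genes to set against the share over all genes.

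Of 31 cytokine and chemokine genes 2 had a peak (6.45%), near the 5.4% over all protein-coding genes. Il1b alone had KO peaks and no WT peak, and Cxcl16, a chemokine, had both. The Il1b peaks were abutting intervals of 239 and 202 bp (ranks 752 and 2089), 9747 and 9545 bp from the gene and so just inside the 10 kb limit. The Cxcl16 peaks were 129 bp wide in KO (rank 940) and 206 bp in WT (rank 1335).

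Of 38 effector genes of the LPS response 11 had a peak (28.9%, beside 5.4% of all protein-coding genes), 6 in KO alone and 5 in both lists. Fyb and Fpr2, both among the 11, were picked with earlier results of these data known, so this share is a description. The acute-phase genes Saa1 and Saa2 shared 1 KO peak of 158 bp that lay between them (chr7:46745845-46746002, rank 177, q-value 0.0343). Saa3, their neighbour, had its own peak of 527 bp over an end of the gene (rank 1005, q-value 0.456). Lcn2 had a peak of 347 bp over its start (chr2:32387708-32388054, rank 301, q-value 0.0830). Fpr1, a receptor for bacterial formyl peptides, had KO peaks of 209 and 126 bp (ranks 377 and 1265). Bcl2a1a, an anti-apoptotic protein, had a peak of 139 bp near the end of the list (rank 2299), and since it belongs to a family of near-identical copies its reads may stem from another copy, as may those around the closely similar Saa1 and Saa2.

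The effectors with peaks in both lists were Sod2, Fth1, Ptges, Fpr2 and Fyb. Sod2, the mitochondrial superoxide dismutase, had peaks of 284 bp in KO (rank 170, q-value 0.0318) and 175 bp in WT (rank 284, q-value 0.0348) that ended at the same base inside the gene. Fth1, the ferritin heavy chain, had the best-ranked peak of the 15 genes in both lists, at rank 28 in KO (523 bp, q-value 0.000693) and rank 119 in WT (473 bp, q-value 0.00818), each just over 5 kb from the gene. Fyb, an adaptor protein of immune cells, had a peak of 339 bp at rank 48 in KO and of 139 bp at rank 642 in WT. Fpr2, the neighbour of Fpr1, had peaks of 289 bp in KO (rank 101) and 180 bp in WT (rank 831). The KO peak of 209 bp given for Fpr1 lay between the genes, 2772 bp from Fpr2. The WT peak of Fpr2 was also the nearest one to Fpr1, so neighbouring peaks enter both counts. Ptges, a prostaglandin E synthase, had 4 narrow KO peaks inside its annotated span, of which 2 met its 2 WT peaks. The 4 lay 9910 to 26362 bp from the nearest annotated start, and since the spans carry no strand or exons, they are not shown to lie in the transcribed gene. The best-ranked Ptges peak in KO (chr2:30929659-30930003, rank 275) was one of the other 2.

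Inflammasome genes with a peak had it in both lists, namely Nlrp3 and Mefv, 2 of 10. The Nlrp3 peaks stood at best ranks 653 in KO and 1085 in WT. Mefv, which encodes pyrin, had a KO peak of 224 bp at rank 331 and a WT peak of 189 bp at rank 2435. Of 32 macrophage transcription factor genes 1 (3.13%, near the share over all genes), Batf, had peaks within 10 kb, of 260 bp in KO (rank 459) and 228 bp in WT (rank 827). None of 28 interferon-stimulated genes had a peak of either list, a count too small to set apart from the share over all genes.

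Of 24 macrophage identity genes, Adgre1, Lyz1 and Sirpa had peaks in KO alone (12.5%) and Fcgr1 in both lists (4.17%). Over all protein-coding genes these shares were 1.3 and 2.67%. The Adgre1 gene, which encodes a widely used surface marker of mouse macrophages, had a KO peak of 146 bp over an end of its span (chr17:57358488-57358633, rank 222, q-value 0.0490). The Lyz1 peak of 135 bp (rank 1264) lay 9046 bp from the lysozyme gene. The Sirpa peak of 1264 bp (rank 2308) and the Fcgr1 peaks, of 2602 bp in KO and 2648 bp in WT, were wide and recurred in untreated NF-kB lists and in IRF3 lists. Among 14 MHC genes, B2m had a KO peak alone (144 bp, rank 1484) and Ciita a WT peak alone (548 bp, rank 2404, q-value 0.904). Each share is 7.14% and rests on 1 gene, beside 1.3 and 1.43% of all protein-coding genes. Ciita, the master regulator of MHC class II genes, was the only macrophage-list gene with a WT peak alone.

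Marker genes of other cell types that a marrow culture could hold were counted in the same way. Of 42 such genes 3 had a peak of either list (7.14%, beside 5.4% of all protein-coding genes). Zap70 of T cells had a KO peak alone, 1738 bp wide and 9911 bp away. Pdgfrb and Lepr of stromal cells had WT peaks alone, of 140 and 788 bp inside the genes. None of the 42 had peaks in both lists, and none of the markers of B cells, neutrophils, dendritic cells or erythroid cells had any. A peak is no measure of expression, and the part of other cells in these lists was not tested.

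The best-ranked KO-only peaks were mostly narrow, and the best-ranked WT-only peaks mostly wide. Of the 10 best KO-only peaks 8 were under 500 bp, against 4 of the 10 best WT-only ones. The single KO-only peak among the first 100 stood at rank 65, was 551 bp wide and lay 61201 bp from Tcte2. Next came a peak of 177 bp with no gene within 100 kb (rank 109) and a peak of 150 bp inside Sema4d, a semaphorin of immune cells (chr13:51740932-51741081, rank 124, q-value 0.0180). Others lay inside Ppp1r9a, an actin-binding protein (rank 136), Vmp1, an autophagy protein (rank 194), and Aopep, an aminopeptidase (rank 224). With Saa1 and Adgre1, described above, 2 of the 10 were at macrophage-list genes. Of all 948 KO-only peaks, 22 were those of the 18 macrophage-list genes with KO peaks alone. The lists were written with earlier results of these data known, so these counts are a description.

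The best-ranked WT-only peak, at rank 182, was 1479 bp wide and lay 36036 bp from Ccr1, a chemokine receptor (chr9:123924612-123926090, q-value 0.0158). It was followed by a peak of 177 bp 28392 bp from Gm40035 (rank 223) and by wide peaks inside Akap9, a scaffold protein (2203 bp, rank 266), 44932 bp from the kinase gene Pak3 (rank 279) and 37607 bp from the olfactory receptor gene Olfr76 (rank 300). A narrow peak inside Slc13a3, a dicarboxylate transporter, stood at rank 371, and one of 311 bp lay 54934 bp from Tafa2 (rank 347). No macrophage-list gene lay within 10 kb of any of the 10. Of all 1130 WT-only peaks, 1 was that of the macrophage-list gene with a WT peak alone. With 10 peaks per class, the difference from the KO-only peaks is a description.

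The best-ranked narrow peaks that both lists shared varied widely in deposited signal. In the KO list, peaks near Cebpb, a transcription factor of the inflammatory response (ranks 38 and 114, signals 29.1 and 22.6, 86984 and 63590 bp from the gene), at Fyb (signal 21.9), Tnfaip3 (signal 26.9) and Fpr2 (signal 23.7) were among the first. So was a peak of 333 bp with no gene within 100 kb (rank 87, signal 24.8). The other 4 of the 10, at Cldn34d, Vps45 and Fam107a and at a position without a gene, had signals from 5.27 to 7.64. The Cldn34d peak, at rank 8, lay in a region present in all 8 lists. In the WT list the 10 best-ranked narrow shared peaks had signals from 4.67 at Cldn34d to 25.7 at a peak 15867 bp from Fgd2, a regulator of the cytoskeleton (315 bp, rank 65). The peaks near Fth1 (signal 21.2), Cebpb (430 bp, rank 134, signal 20.6) and Socs3 (294 bp, rank 271, signal 17.1) were high, that inside Vmn2r83 lay between (signal 11.4), and those inside Mdga2 (signal 4.95) and Sned1 were low. The last 2 of the 10 had no gene within 100 kb and signals of 5.59 and 6.05.

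The share of peaks found in the other lists of the series was lower for peaks of 1 genotype alone than for shared peaks in each list. The untreated KO list of NF-kB overlapped 34.2% of KO-only peaks (31.2 to 37.3%) and 36.6% of WT-only peaks (33.8 to 39.5%). The untreated WT list overlapped 14.2 and 14.3%. For shared KO peaks these shares were 80.7 and 56.9%. The untreated KO list is the longer one, with 3065 peaks against 1462, so the shares do not compare the untreated genotypes. Either untreated list overlapped 40.6% of KO-only peaks (37.5 to 43.8%) and 42.5% of WT-only peaks (39.6 to 45.4%). The intervals of KO-only and WT-only shares overlapped in 5 of the 6 other lists. The exception was the IRF3 list of WT cells with LPS, which overlapped 11.6% of KO-only peaks (9.63 to 13.8%) and 16.0% of WT-only peaks (13.9 to 18.3%). WT-only peaks were the wider class, and the part of width was not tested. Among peaks under 500 bp the IRF3 list of WT cells with LPS overlapped 5.21% (3.40 to 7.59%) of KO-only and 6.83% (4.69 to 9.55%) of WT-only peaks.

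Narrow peaks had smaller shares in each class. Either untreated NF-kB list overlapped 22.7% of narrow KO-only peaks, 21.1% of narrow WT-only peaks and 56.9% of narrow shared KO peaks. The IRF3 list of KO cells with LPS overlapped 8.13% of narrow KO-only peaks (5.84 to 10.9%) and 34.9% of narrow shared KO peaks (28.6 to 41.6%). None of the 6 other lists had a peak at 68.1% of narrow KO-only positions and 70.7% of narrow WT-only positions, against 33.9% of narrow shared ones in the KO list. The shares were higher when both LPS lists were first reduced to peaks with a q-value under 0.05. Of the 162 peaks then listed in WT alone 97.5% overlapped an untreated NF-kB peak, as did 78.0% of the 59 peaks then listed in KO alone. Most of these are shared peaks in the full lists, since 155 of the 162 overlapped a KO peak of any q-value and 49 of the 59 a WT peak.

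**Figure D5:**
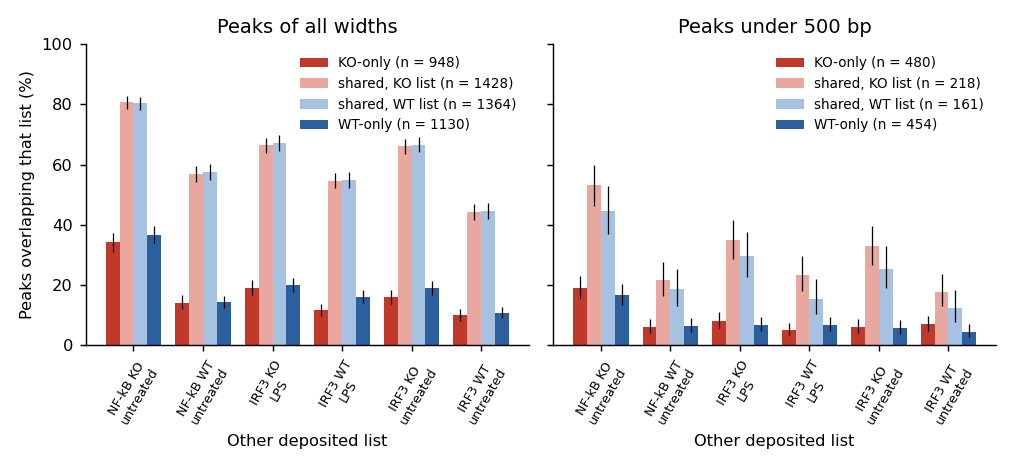
Percent of NF-kB peaks with LPS that overlap each of the 6 other deposited lists, by class (left, all widths; right, peaks under 500 bp; dark red KO-only, light red and light blue shared, dark blue WT-only; bars are exact 95% intervals). Dark bars stay under the light ones in every list, for instance at 34.2 and 36.6% against 80.7% in the untreated KO list of NF-kB.

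Of KO-only peaks 31.9% lay inside the span of a protein-coding gene, as did 28.3% of WT-only peaks and 30.4% of shared KO peaks. For 29.0% of KO-only and 32.8% of WT-only peaks no protein-coding gene lay within 100 kb. A start window was overlapped by 9 KO-only and 6 WT-only peaks, against 15 shared peaks of each list. Of narrow peaks, 1.46% of KO-only and 0.661% of WT-only ones overlapped a start window, against 3.67% of shared KO peaks and 4.97% of shared WT peaks. Narrow KO-only peaks over starts included those of Sp110, a nuclear body protein (198 bp, rank 1927, q-value 0.889), and of Gm33862 and LOC115488002 (ranks 1938 and 1556). Among narrow shared peaks, 1 covered the start of Znrf1, a ubiquitin ligase gene (136 bp in KO, rank 1514, and 147 bp in WT, rank 1365), and 1 that of Lrmda (347 bp, rank 616, and 296 bp, rank 2208).

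Partial overlaps and near misses were few. Shared KO peaks overlapped a WT peak by a median of 1080 bp, and only 8 of the 1428 overlapped by under 50 bp. Of KO-only peaks 38 lay within 1 kb of a WT peak, and of WT-only peaks 31 lay within 1 kb of a KO peak. The median distance to the nearest peak of the other list was 255456.5 bp for KO-only and 298766.5 bp for WT-only peaks.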

How the data were processed

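ChIP-seq with an NF-kB antibody was analysed in the 2 groups with LPS, 3 samples each. Per the labels, the replicates of a group point to 1 list, so each deposited list merges them. Each peak carries the authors' signal value, an unscaled score, and a deposited p-value and q-value. The largest q-value was 0.912 in the KO list and 0.904 in the WT list, so the lists were not cut at 0.05. Per the submitters' processing notes, coordinates are in mm10 and the tools, named without roles, include MACS2 2.1.1, HOMER 4.9, Picard 2.8.0, Trim Galore 0.4.5 and deepTools 3.5.0. No source used here gives the aligner, the calling settings, the merging method or the depth, so precision is limited to the counts of peaks.

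Intervals were compared in Python 3.11.15 (pandas 2.3.3, NumPy 2.4.6, SciPy 1.17.1, matplotlib 3.10.9). Rank follows the p-value, then signal, width and position. Gene spans, without strand or exons, came from RefSeq's GRCm38.p6 table, and 274 of 277 listed symbols matched. Start windows were given for chromosomes other than 18. Overlap, joining and motif counting were tested on simulated data, where 10 of 10 checks were recovered. A search around peak centres, planned for the case that a genome was given, was not made, since no genome was used here.

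The members and gene lists were chosen with earlier results of these data known. Named genes were, by rule, all macrophage-list genes with a peak within 10 kb of their span, the nearest gene within 100 kb of the 10 best-ranked peaks of each class, genes with a start window under a narrow peak (up to 15 per class), and the 5 narrow shared peaks with the largest rank difference in each direction. Groups were compared by counts, without tests. Alternatives covered the overlap needed, q-value, list length, recurrent regions, width and gene distance. IRF3 and untreated NF-kB lists served only to describe the peaks, and data of other assays were not used here.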

Additional observations from a re-analysis of the deposited data

How the results depend on the processing

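No paired analysis was possible because each deposited list merges the 3 replicates of its group, and for the same reason no replicate could be left out. Of 67 alternative values 40 stayed within the interval of the main value or within 1.5 times the main count, and 27 moved. The cause of the shifts was not tested unless the setting itself makes it. With a q-value under 0.05 in both lists, the share of KO peaks overlapping WT was 74.0% and of WT peaks overlapping KO 50.9%, narrow peaks made up 28.8% of KO-only and 2.47% of WT-only peaks, an untreated peak lay at 78.0 and 97.5% of them, and the gene counts were 8 KO alone and 2 both. With the 1000 best-ranked peaks of each list, 60.9% of WT peaks were shared, 27.6% of KO-only and 11.8% of WT-only peaks were narrow, 61.2 and 76.7% met an untreated peak, and 9 genes had both and 0 WT alone. Without regions listed in all 8 lists, 52.5% of KO and 47.1% of WT peaks were shared, a fall that the setting makes, since such regions hold peaks of both lists. With narrow peaks alone in both lists, 13.2 and 14.6% were shared, and 34.2% of KO-only and 27.8% of WT-only peaks met an untreated peak. With narrow meaning under 300 bp, the narrow shares were 35.4 and 27.7%, and under 800 bp 67.8 and 61.0%, as the setting makes them. Within 1 kb 11 genes had KO peaks alone, and within 50 kb 4 genes had WT peaks alone (Ccr1, Ciita, Csf1r and Relb) against 24 with KO peaks alone. Over all protein-coding genes, 207 and 228 had KO or WT peaks alone within 1 kb, and 689 and 733 within 50 kb. Chosen after seeing the data, joining abutting peaks and counting distinct peaks in place of genes moved no value beyond these bounds. A merged list without depth limits every statement to which intervals were listed: a peak missing from a list is not shown to be unbound.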

Other observations

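Ranks of the same narrow shared peak differed widely between lists in some places, and the following peaks were chosen for that difference. Nearer the top of the KO list were peaks beside Mefv (13.9% down the KO list and 97.6% down the WT list), Ets2, a transcription factor gene 7902 bp away (11.7 and 93.0%), Ly9, an immune cell receptor gene 9580 bp away (18.6 and 95.5%), and Htr1f, 91761 bp away (17.0 and 85.2%). Nearer the top of the WT list were peaks beside the zinc finger gene Zfp978 (99.6% down the KO list and 25.0% down the WT list), Gm17019 (79.2 and 25.8%) and inside the vomeronasal receptor gene Vmn2r83 (52.2 and 8.14%). The remaining 3 had no protein-coding gene within 100 kb. Over the 92 pairs of overlapping peaks both under 500 bp, Spearman's rho of the ranks was 0.362, and over all 1428 shared KO peaks, each paired with a WT peak it overlapped, it was 0.547. The pairs come from the same pair of lists, and wide recurrent regions are among them.

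Chromosome X held 9.28% of KO-only, 10.1% of WT-only and 10.4% of shared KO peaks, against 4.41% of protein-coding genes. Olfactory receptor genes were the nearest gene for 1.37% of KO-only and 1.42% of WT-only peaks, and they make up 5.07% of protein-coding genes. Predicted genes named Gm with a number were nearest for 7.07% of KO-only and 8.94% of WT-only peaks, against 6.07% of genes. The peak shares count all peaks of a class, also those with no gene within 100 kb, and most peaks lay outside gene spans. Shares of genes are therefore no measure of the shares that peaks would have by position alone. The widest peak of 1 genotype alone was a KO-only interval of 10150 bp at chr4:3058951-3069100 (rank 197), with no protein-coding gene within 100 kb.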
